A study of Mus musculus with 2 samples.

Results

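The genes described are 10 components of the adherens and tight junctions of endothelial cells, out of 33696 genes in the count matrices of both libraries. The list names genes for their place in the junction and uses no threshold on their values, and it was drawn up with earlier results of these data known. They are the cadherin gene Cdh5 (ENSMUSG00000031871), the immunoglobulin-family adhesion genes Pecam1 (ENSMUSG00000020717), Esam (ENSMUSG00000001946), Jam2 (ENSMUSG00000053062), Jam3 (ENSMUSG00000031990) and F11r (ENSMUSG00000038235), the claudin gene Cldn5 (ENSMUSG00000041378), and the cytoplasmic plaque genes Tjp1 (ENSMUSG00000030516), Jup (ENSMUSG00000001552) and Cgnl1 (ENSMUSG00000032232). All 10 were detected in both libraries.

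Endothelial cells seal the vessel wall through these junctions. VE-cadherin, the protein of Cdh5, holds neighboring cells together through catenins, of which plakoglobin (Jup) is a member shared with desmosomes, and claudin-5 (Cldn5) closes the space between cells to small solutes. PECAM-1, ESAM and the JAM proteins (Jam2, Jam3 and F11r, which encodes JAM-A) join cells at the same contacts and also guide the passage of leukocytes, whereas ZO-1 (Tjp1) and paracingulin (Cgnl1) tie the junction to the actin cytoskeleton. Cdh5, Esam and Cldn5 are mostly restricted to endothelium among cells of a tumor, while F11r, Tjp1, Jup and Cgnl1 are also used by epithelial cells.

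The cells came from mammary tumors of PyMT-M (High-MAC, rich in macrophages) and PyMT-N (Low-MAC, poor in macrophages), transplantable sublines of the MMTV-PyMT mouse model, in which the MMTV promoter drives the polyoma middle T antigen in mammary epithelium. The paper also describes the Low-MAC models as richer in neutrophils. The sublines were injected into the fourth mammary fat pad of female C57BL/6 mice aged 6 to 8 weeks, and no treatment separates the groups. Dissociated tumors were depleted of CD45+ and Ter119+ cells and enriched with beads and then by sorting for CD31 and CD144, which are the proteins of Pecam1 and Cdh5, so both genes name proteins the cells were selected for. Cells of 3 tumors were pooled per model into a single 10x Genomics 3′ library, so each model has 1 library, no difference between models has a replicate check, and a difference between the models cannot be told apart from a difference between the libraries.

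The PyMT-M library held 141067264 UMIs in 7821 barcodes and the PyMT-N library 116150425 UMIs in 6974 barcodes. At least 200 detected genes and at most 10% mitochondrial UMIs left 6719 and 5607 cells. The libraries shared 20 barcodes. Cells were called blood endothelial from 5 or more UMIs of Flt1, Emcn and Kdr with at most 1 of Krt8, Krt18 and Rhox5, lymphatic from 3 or more UMIs of Prox1, Mmrn1 and Reln, tumor from 3 or more UMIs of Krt8, Krt18 and Rhox5 without Flt1 and Emcn, and fibroblast from a Col3a1 level of at least 3000 CPM (UMIs scaled to the total UMIs of the cell or class). By these rules 531 PyMT-M and 1134 PyMT-N cells were blood endothelial, 20 and 207 lymphatic, 5125 and 3380 tumor, and 58 and 63 fibroblast. None of these 4 rules was met by 1000 and 953 cells. Leukocytes were a further class (371 and 298, with 3 or more UMIs of Ptprc, Tyrobp and Coro1a, no Flt1 or Emcn and at most 1 of the tumor genes). With leukocytes set apart, 629 and 656 cells met no rule. Of these, 221 (35.1%) and 182 (27.7%) had a UMI of Cdh5, and 39.3% and 28.7% had a UMI of Pecam1. Among the blood endothelial cells 507 and 1130 had a UMI of Cdh5. The rule was not scaled for depth, and the median of blood endothelial cells was 5419 and 12712 UMIs. The class can therefore miss unlike shares of endothelial cells in the libraries, which was not tested. Blood endothelial cells detected all 6 of 6 endothelial markers that the rule did not use, in at least 25% of the cells of each library. Lymphatic cells did so for 4 of the 6 in PyMT-M and for all 6 in PyMT-N, so these markers are not particular to blood endothelial cells. In tumor cells 2 of the 6 reached that share in PyMT-M (a sum of 95.2 CPM) and 0 in PyMT-N (14.8 CPM). The tumor cells detected none of the 4 epithelial markers Epcam, Krt7, Krt19 and Krt14 in that share, with a sum of 3.54 CPM in PyMT-M and 1.38 CPM in PyMT-N, so "tumor" below means the cells that the keratin and Rhox5 rule selects. The tumor rule was met through partly different genes in the libraries. Krt18 was in 0.195% of PyMT-M and 98.4% of PyMT-N tumor cells, Rhox5 in 99.6% and 12.8%, and Krt8 in 90.6% and 99.4%. In PyMT-N 112 cells met both endothelial rules, 9.88% of the blood endothelial and 54.1% of the lymphatic cells, against 1 cell in PyMT-M. Without them the PyMT-N blood endothelial cells kept 15851 of 15901 UMIs of Flt1, 15236 of 15359 of Emcn and 6157 of 7076 of Kdr. Of the lymphatic marker Ccl21a they kept 502 of 22204. The 112 cells thus resembled lymphatic cells and met the blood endothelial rule mainly through Kdr. Kdr was in 94.2% and Flt1 in 3.38% of PyMT-N lymphatic cells. Values of cells that met a single rule (529 and 1022 blood endothelial cells) therefore stand beside the main ones.

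F11r, Jup, Cgnl1 and Jam2 were at least 10-fold lower in tumor cells of PyMT-M than of PyMT-N, and the promoters of the first 3 are shown for that reason, Jam2 having no entry in the RefSeq table used. Each sequence runs from 250 to 51 bases before the RefSeq start site, 5′ to 3′ on the strand of the gene in GRCm38.p6, at chr1:171437311-171437510 (plus strand) for F11r, chr11:100397841-100398040 (minus strand) for Jup and chr9:71771653-71771852 (minus strand) for Cgnl1. Capitals mark the E-box CACCTG, the sequence that Snail and ZEB repressors of epithelial genes are known to bind, searched on both strands after the tumor values had been seen.
F11r: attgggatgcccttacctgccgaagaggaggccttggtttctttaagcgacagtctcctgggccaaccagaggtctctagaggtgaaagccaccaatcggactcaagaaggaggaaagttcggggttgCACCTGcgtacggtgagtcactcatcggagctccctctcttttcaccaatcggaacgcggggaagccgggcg
Jup: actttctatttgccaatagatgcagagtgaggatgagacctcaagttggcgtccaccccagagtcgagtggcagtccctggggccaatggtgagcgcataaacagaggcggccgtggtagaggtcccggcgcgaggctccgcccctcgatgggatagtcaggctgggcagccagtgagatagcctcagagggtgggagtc
Cgnl1: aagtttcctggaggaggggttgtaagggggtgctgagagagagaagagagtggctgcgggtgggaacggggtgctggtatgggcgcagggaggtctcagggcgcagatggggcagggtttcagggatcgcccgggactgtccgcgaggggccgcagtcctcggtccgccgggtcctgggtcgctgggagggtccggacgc
The E-box occurred in the F11r window, at position 129 from the left end, and in neither of the other two, and 14.4% of 32851 RefSeq promoter windows of 200 bases held it. Of the 10 genes, 5 had a promoter in the RefSeq table, the other two being Cldn5 and Tjp1. The letters AGGAAG, a longer form of the ETS core GGAA, were searched on either strand. They were in 0 of these 5 windows and in 23.9% of all windows, which says only that these letters are not in these windows. The core GGAA itself was not counted, and it occurs in the F11r and Cgnl1 windows shown.

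Cdh5, the cadherin gene, was lower in PyMT-M blood endothelial cells by a small margin. It was at 971 CPM (exact 95% Poisson interval 937 to 1007) in the blood endothelial cells of PyMT-M and at 1164 CPM (1147 to 1181) in those of PyMT-N. Intervals on levels, ratios and shares cover counting error only, here and throughout. Log2 ratios between the libraries are given with PyMT-M as the numerator. That of Cdh5 was -0.26 (-0.32 to -0.20), and -0.34 in cells of a single class. Cdh5 was lower in lymphatic cells, at 438 CPM in PyMT-M against 536 CPM in PyMT-N. In tumor cells it was far lower, at 3.76 and 2.44 CPM. Leukocytes, which should lack Cdh5, had 0 UMIs of it in PyMT-M, with an upper limit of 4.26 CPM. In PyMT-N leukocytes it was at 4.47 CPM (2.31 to 7.80). Whether the tumor levels are expression or stray RNA was not tested. The order blood endothelial, lymphatic, tumor held in both libraries, while fibroblasts lay within counting error of the tumor cells in PyMT-M (1 UMI, 1.86 CPM). In PyMT-N the fibroblast level was higher, at 10.5 CPM, but its 16 UMIs lay in 2 of 63 cells. That is 3.17% of fibroblasts, against 3.96% of PyMT-N tumor cells with a Cdh5 UMI.

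Cldn5 differed more between the libraries. It was at 519 CPM (494 to 545) in PyMT-M and 909.7 CPM (895 to 925) in PyMT-N blood endothelial cells, 1.75-fold (1.66 to 1.84) higher in PyMT-N. Its log2 ratio was -0.81 (-0.88 to -0.73), and -0.61 (-0.69 to -0.53) in cells of a single class. Lymphatic cells held more Cldn5 than blood endothelial cells in both libraries, at 1663 CPM in PyMT-M and 1731 CPM in PyMT-N, and PyMT-N blood endothelial cells of a single class were at 793 CPM. The 4 lymphatic markers outside the rule summed to 64.7 CPM in PyMT-M blood endothelial cells and 1669.5 CPM in those of PyMT-N, none being in 25% of the former. Most of the PyMT-N sum was Ccl21a, at 1413 CPM on 22204 UMIs. In PyMT-N cells of a single class Ccl21a was at 35.8 CPM on 502 UMIs, so most of it lay in cells that also met the lymphatic rule.

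Cldn5 was also the most uneven of the genes from cell to cell. In the blood endothelial cells of a single class 43.9% of PyMT-M cells had no Cldn5 UMI, where the sum spread over the cells by depth (a Poisson model) gives 10.4%, and 15.1% of PyMT-N cells had none, where it gives 0.307%. Its variance over mean at 3000 UMIs per cell was 4.25 and 3.74, against 1.48 and 1.38 for Cdh5. Cdh5 had no UMI in 4.35% and 0.391% of these cells.

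Among the immunoglobulin-family genes, Pecam1 and Jam2 were higher in PyMT-M beyond counting error, Jam3 and F11r lower, and Esam was within it. Pecam1, a gene of endothelium and leukocytes, reached 1281 CPM in the blood endothelial cells of PyMT-M against 1058 CPM in those of PyMT-N, a log2 ratio of 0.28 (0.23 to 0.33). Esam, an adhesion molecule of endothelial cells and platelets, was at 717 and 702 CPM, a log2 ratio of 0.03 (-0.04 to 0.10), within counting error. In cells of a single class its log2 ratio was -0.13 (-0.19 to -0.06).

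Jam2 was the only one of the 10 genes past 1.5-fold in favor of PyMT-M. It was at 130.4 CPM (118 to 144) in PyMT-M against 65.2 CPM (61.3 to 69.3) for PyMT-N, and its log2 ratio was 1.00 (0.83 to 1.17), and 0.85 (0.68 to 1.01) in cells of a single class. Blood endothelial cells were shallower in PyMT-M, where their median was 5419 UMIs, against 12712 UMIs for PyMT-N. In cells of 5000 to 15000 UMIs, a range set after the data were seen, the Jam2 log2 ratio was 0.48, below 1.5-fold. Its relatives were closer together, with Jam3 at 43.5 and 54.1 CPM, a log2 ratio of -0.32 (-0.59 to -0.05), and F11r at 318 and 359 CPM, a log2 ratio of -0.18 (-0.27 to -0.08).

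The 3 plaque genes were lower in PyMT-M. Tjp1 was at 269 CPM in PyMT-M and 372 CPM in PyMT-N, which gave a log2 ratio of -0.47 (-0.58 to -0.36). Jup was at 60.2 CPM in PyMT-M and 105 CPM in PyMT-N, which gave a log2 ratio of -0.80 (-1.02 to -0.58). Cgnl1 was at 34.1 CPM in PyMT-M and 62.8 CPM in PyMT-N, which gave a log2 ratio of -0.88 (-1.18 to -0.59). The intervals of all 3 excluded 0, and that of Jup reached under 1.5-fold. In cells of a single class the log2 ratio was -0.54 (-0.65 to -0.44) for Tjp1 and -0.82 (-1.13 to -0.53) for Cgnl1. That of Jup was -0.63 (-0.85 to -0.40), or 1.54-fold (1.32 to 1.81) higher in PyMT-N.

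Counted over the 10 genes, 3 (Cldn5, Jup and Cgnl1) were at least 1.5-fold lower in PyMT-M blood endothelial cells, where 12.7% of the 11414 genes with at least 50 UMIs were. A single one (Jam2) was at least 1.5-fold higher, where 10.9% of all genes were, and 6 lay between. The median log2 ratio was -0.29 over the junction genes and -0.01 over all genes. In cells of a single class the counts were again 3 and 1, where 10.7% and 11.7% of 11086 genes were past the fold. The PyMT-M blood endothelial cells held more transcripts of mural cell genes, at 270.5 CPM over 5 markers against 7.51 CPM in PyMT-N, with Acta2 in 20 and Rgs5 in 12 of the 531 cells. In PyMT-N, Acta2 was in 27 and Rgs5 in 39 of the 1134 cells, so a UMI of Rgs5 was found in 2.26% of PyMT-M and 3.44% of PyMT-N cells. The counts were 3 and 1 without cells of 3 or more mural marker UMIs, with log2 ratios of -0.79 for Cldn5 and 1.01 for Jam2.

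**Figure D1:**
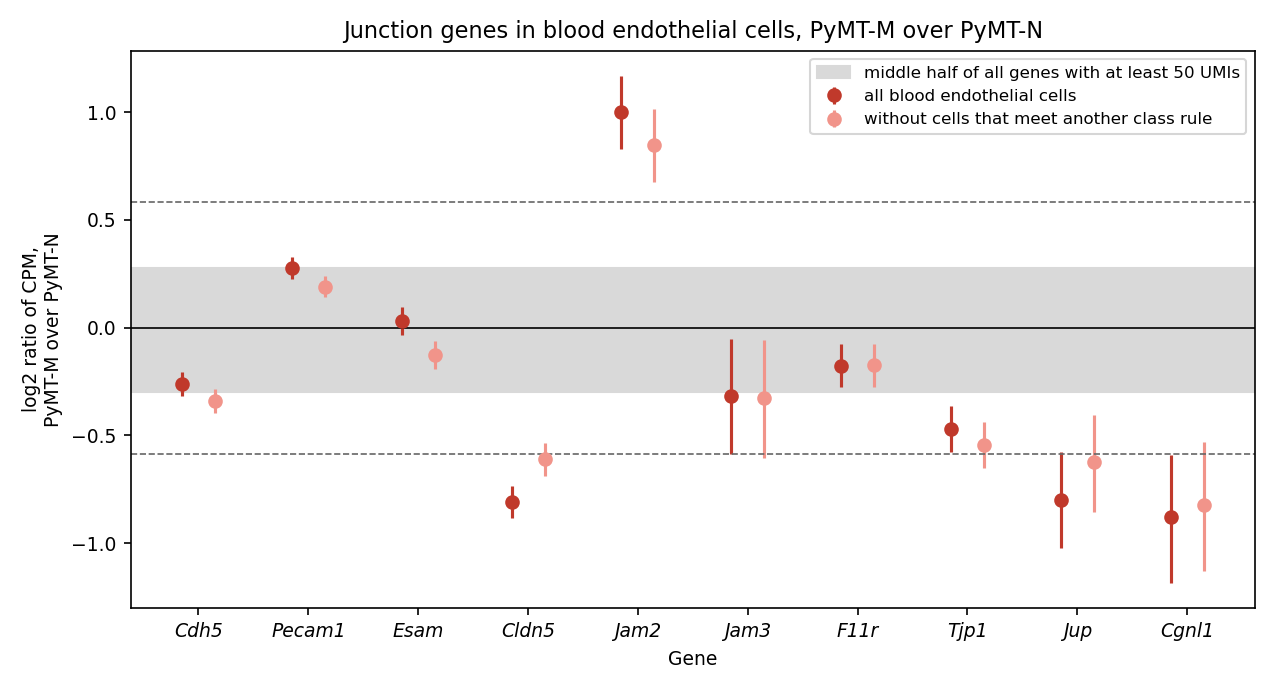
Log2 ratio of summed CPM, PyMT-M over PyMT-N, of the 10 junction genes in blood endothelial cells, with exact 95% intervals for counting error. Dark points are all blood endothelial cells and light points those that meet no other class rule. The gray band is the middle 50% of all genes and dashed lines mark 1.5-fold. Jam2 sits alone above the upper line (1.00), and Cldn5 (-0.81), Jup (-0.80) and Cgnl1 (-0.88) lie below the lower one.

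Because the libraries differed in depth, detection was also compared after thinning each cell to 3000 UMIs, which left out 80 PyMT-M and 5 PyMT-N blood endothelial cells. Cldn5 was then detected in 51.7% of PyMT-M cells (46.9 to 56.4%) against 71.0% of PyMT-N cells (68.3 to 73.7%), and in 56.1% and 86.4% before thinning. Jam2 was detected in 29.7% of PyMT-M cells (25.5 to 34.2%) against 16.8% of PyMT-N cells (14.7 to 19.1%), and in 43.5% and 41.3% before thinning. After thinning the interval of PyMT-M did not reach that of PyMT-N for either gene. Thinning does not match the cells by their original depth. In cells of 5000 to 15000 UMIs the Jam2 log2 ratio was 0.48, below 1.5-fold.

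Jup was detected in 15.7% of PyMT-M and 27.2% of PyMT-N blood endothelial cells at 3000 UMIs, Cgnl1 in 8.43% and 14.7%, and Tjp1 in 51.0% and 62.5%. Cdh5 (92.2% and 93.0%), Pecam1 (95.3% and 93.9%), Esam (83.6% and 81.8%), Jam3 (12.9% and 14.8%) and F11r (61.6% and 65.4%) had intervals that overlapped between the libraries. All these shares include the cells that also met the lymphatic rule. Before thinning, Esam was in 91.6% of all PyMT-N blood endothelial cells and in 99.2% of those of a single class. In PyMT-M it was in 92.8% and 93.0%, so the overlap for Esam holds for the full class only. Cldn5 and Jup were in 84.9% and 62.0% of PyMT-N cells of a single class, against 86.4% and 65.2% of all. Leukocytes, which should lack Cdh5, Esam and Cldn5, gave 0% and at most 1.2% of cells with a UMI of these genes in PyMT-M and PyMT-N at the same depth, among 86 and 250 leukocytes. Thinning left out 285 and 48 leukocytes. Before thinning, Cdh5, Esam and Cldn5 were in 2.35%, 1.68% and 2.01% of the 298 PyMT-N leukocytes. In the 371 of PyMT-M they were in 0%, 0.27% and 0%, where 0% allows up to 0.809% by a limit of 3 counts.

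**Figure D2:**
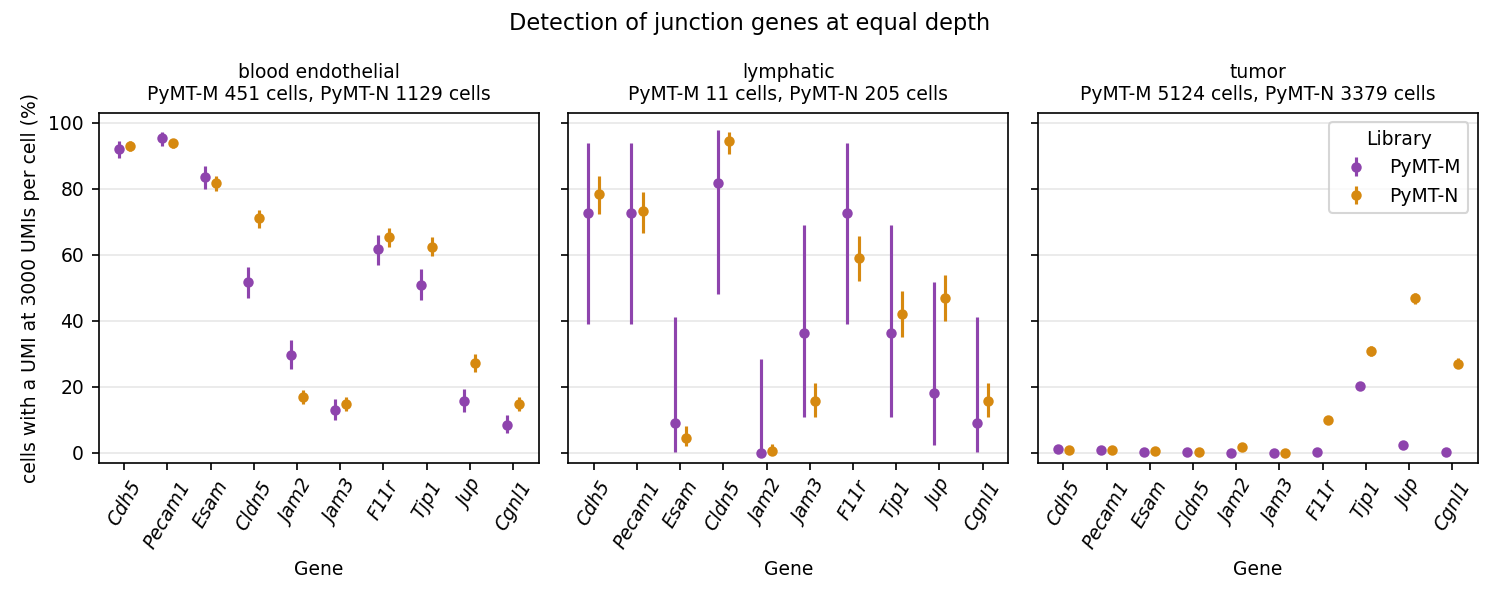
Percent of cells with at least 1 UMI of each junction gene after thinning each cell to 3000 UMIs, for blood endothelial, lymphatic and tumor cells of both libraries, with exact Clopper-Pearson 95% intervals. In blood endothelial cells, those that also met the lymphatic rule included, Cldn5, Tjp1, Jup and Cgnl1 are detected more often in PyMT-N and Jam2 in PyMT-M. In tumor cells F11r, Jup and Cgnl1 stand above 9% in PyMT-N and under 3% in PyMT-M.

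The blood endothelial cells were divided by marker UMIs into overlapping states, and each state was compared with the other blood endothelial cells of its library, in cells of a single class. Venous cells (2 or more UMIs of Ackr1, Selp and Sele, 65 in PyMT-M and 94 in PyMT-N) had little Cldn5. It was at 93.3 CPM in the venous cells of PyMT-M against 581 CPM in the other cells, a log2 ratio of -2.64 (-3.16 to -2.16), and at 165 CPM against 858 CPM in PyMT-N (log2 ratio -2.38, -2.58 to -2.19). Jam2 ran the other way, at 212 CPM in venous cells against 119 CPM in the others of PyMT-M, a log2 ratio of 0.83 (0.47 to 1.19), and at 221 CPM against 57.6 CPM in PyMT-N (log2 ratio 1.94, 1.74 to 2.14). The claudin and the adhesion molecule thus had opposite signs in venous cells of both libraries.

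Capillary cells (3 or more UMIs of Gpihbp1, Cd300lg and Car4, 410 of 529 and 866 of 1022 cells) had the opposite signs for Cldn5 and Jam2. The few cells they are compared with can include venous cells, so the capillary and venous contrasts are not separate observations. Cldn5 was at 591 CPM in capillary cells against 204 CPM in the others of PyMT-M, a log2 ratio of 1.53, and at 863 CPM against 251 CPM in PyMT-N (log2 ratio 1.78). Jam2 was at 112 CPM against 213 CPM in PyMT-M (-0.92) and at 59.7 CPM against 174 CPM in PyMT-N (-1.55). Jam3 was higher in capillary cells, by a log2 ratio of 1.29 (0.40 to 2.33) in PyMT-M and 0.94 (0.52 to 1.40) in PyMT-N, opposite in sign to its relative Jam2.

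Cycling cells (3 or more UMIs of Mki67, Top2a and Cenpf, 70 and 90 cells) had less Cldn5, at 251 CPM against 586 CPM in PyMT-M and 279 CPM against 861 CPM in PyMT-N, log2 ratios of -1.22 and -1.63. Cgnl1 did not keep its sign across libraries in this state, with log2 ratios of 0.73 (0.08 to 1.35) in PyMT-M, on 31 UMIs, and -1.31 (-1.79 to -0.87) in PyMT-N. Nor did it in capillary cells, with -0.81 (-1.44 to -0.15) and 0.96 (0.56 to 1.39). In arterial cells (2 or more UMIs of Gja5, Gja4, Sema3g and Bmx, 55 and 135 cells) Jup was higher, by 1.04 (0.42 to 1.61) in PyMT-M and 0.36 (0.15 to 0.56) in PyMT-N. Pecam1, Esam and F11r stayed between -0.46 and 0.32 in all 6 states of both libraries.

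**Figure D3:**
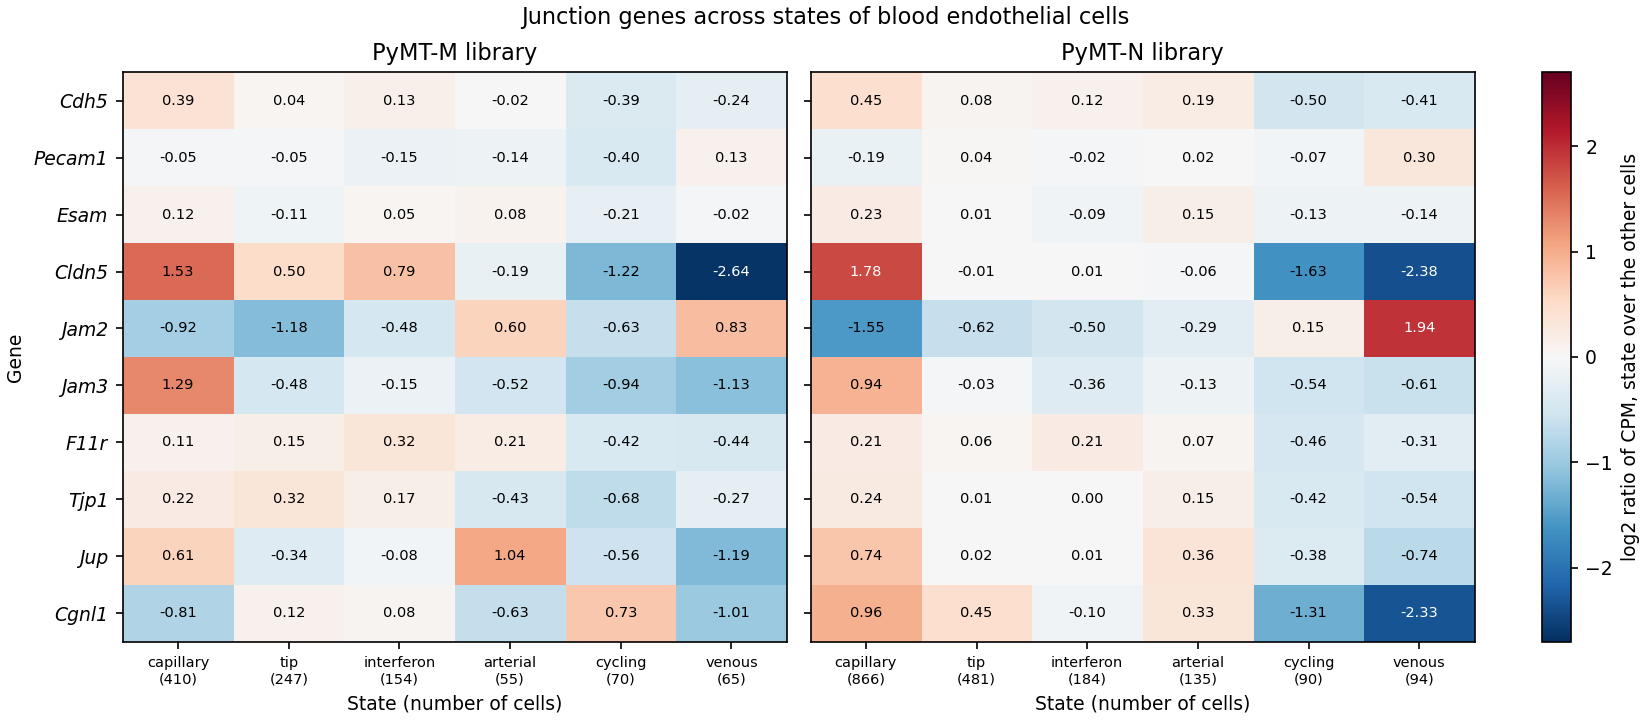
Log2 ratio of CPM of each junction gene in a state over the other blood endothelial cells of the same library, in cells that meet a single class rule, with the number of cells of each state. The ratio of Cldn5 is highest in capillary cells (1.53 for PyMT-M, 1.78 for PyMT-N) and lowest in venous cells (-2.64 and -2.38), and that of Jam2 has the opposite signs. The Cldn5 level itself was higher in interferon (726 CPM) than in capillary cells (591 CPM) of PyMT-M. A cell can belong to several states.

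Within the states, PyMT-M was compared with PyMT-N in the same cells of a single class. The states were called by UMI numbers not scaled for depth, and the median depth was 5419 UMIs in PyMT-M and 12712 UMIs in PyMT-N. A state of the same name can therefore select unlike cells in the libraries, which was not tested. Cldn5 was lower in PyMT-M in 6 of 6 states, beyond counting error in 5, with log2 ratios from -0.82 in venous to -0.13 in interferon cells (3 or more UMIs of Cxcl9, Cxcl10 and Rsad2). Jam2 was higher in PyMT-M in 5 of 6 states, beyond counting error in 4, from 0.18 in cycling to 1.63 in arterial cells, and at -0.06 (-0.43 to 0.30) in venous cells. Jup and Tjp1 were lower in PyMT-M in 6 of 6 states each, beyond counting error in 5. Cgnl1 was lower in 4 of 6 and higher beyond counting error in 1, with a log2 ratio of 0.94. The states share cells, so they are not separate observations.

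Lymphatic cells line the vessels that drain fluid, and their junctions open for fluid entry. Cells that met the lymphatic rule alone had far less Esam and Jam2 than blood endothelial cells in PyMT-N. Esam was at 10.7 CPM (10 UMIs) in lymphatic against 785 CPM in blood endothelial cells, a log2 ratio of blood endothelial over lymphatic of 6.19 (5.31 to 7.25). Jam2 was at 3.22 CPM (3 UMIs) against 72.8 CPM, a log2 ratio of 4.50 (2.95 to 6.78). Cldn5 and Jup were higher in lymphatic cells, Cldn5 at 1694 against 793 CPM (-1.09) and Jup at 185 against 93.3 CPM (-0.99).

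Of the 10 genes, 5 (Cdh5, Pecam1, Esam, Jam2 and Tjp1) were at least 1.5-fold higher in blood endothelial than in lymphatic cells of PyMT-N, where 17.3% of 10992 genes were. Cldn5 and Jup were at least 1.5-fold lower, where 20.4% of all genes were. Jam3 (53.1 and 43.0 CPM), F11r (360.3 and 306 CPM) and Cgnl1 (60.7 and 65.5 CPM) were within 1.5-fold. The PyMT-M library held 20 lymphatic cells, with 1 UMI of Esam, 0 of Jam2 and 148 of Cldn5. Among cells of a single class there, 4 genes (Cdh5, Pecam1, Esam and Jam2) were at least 1.5-fold higher in blood endothelial cells, where 35.0% of 7503 genes were, and 3 (Cldn5, Jam3 and Jup) lower, where 23.2% were, with Jam2 at least 3.04-fold higher by the level of 3 counts and Jam3 within counting error. With 0 UMIs in 20 cells, the share of lymphatic cells with a Jam2 UMI could be up to 15% by a limit of 3 counts. Over all lymphatic cells, those that also met the blood endothelial rule included, Esam, Jup and Cgnl1 were at least 1.5-fold lower in PyMT-M than in PyMT-N, where 31.1% of 7569 genes were, and Jam3 was higher, where 19.9% were, and the counting intervals of these 4 ratios included 0. In lymphatic cells of a single class Esam turned its direction (14.3 and 10.7 CPM, on 1 and 10 UMIs) and Jup was under 1.5-fold (143 and 185 CPM).

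Tumor cells of the libraries differed in which junction genes they held. In the PyMT-M tumor cells 8 of the 10 genes were at least 10-fold lower than in the blood endothelial cells of that library, where 6.71% of 13615 genes were. Their tumor level was 0.065% (Cldn5) to 2.66% (Cgnl1) of the blood endothelial one. Jup, at 7.61 CPM, was at 12.6%, and Tjp1, at 80.3 CPM, at 29.9% of the blood endothelial level.

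In PyMT-N 7 of the 10 genes were at least 10-fold lower in tumor than in blood endothelial cells, where 7.23% of 14213 genes were, and Jup and Cgnl1 were higher in tumor cells. Jup was at 210.0 CPM in tumor and 105 CPM in blood endothelial cells, 2.01-fold higher in tumor cells. Cgnl1 was at 110.1 and 62.8 CPM, 1.75-fold higher in tumor cells. F11r was at 32.5 CPM and Jam2 at 5.57 CPM in tumor cells, 9.04% and 8.54% of their blood endothelial levels.

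**Figure D4:**
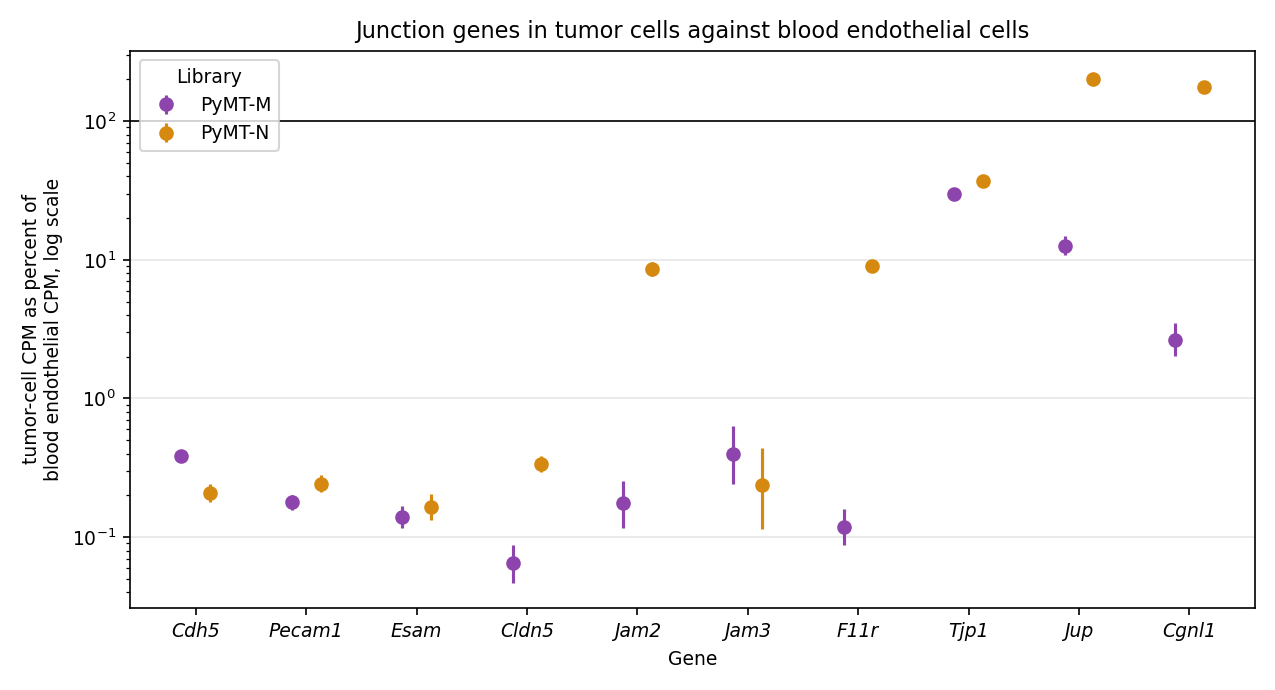
Level of each junction gene in tumor cells as a percent of its level in blood endothelial cells of the same library, on a log axis, with exact 95% intervals for counting error. The line at 100% marks equal levels. Jup and Cgnl1 lie above it in PyMT-N, whereas in PyMT-M they are at 12.6% and 2.66%, and Cdh5, Pecam1, Esam, Cldn5 and Jam3 are under 1% in both libraries.

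Set against each other, the tumor cells differed most in Cgnl1, F11r, Jup and Jam2. The tumor rule was met through partly different genes in the libraries, so these ratios compare cells selected in part differently. Cgnl1 was at 0.906 CPM in PyMT-M and 110.1 CPM in PyMT-N, 122-fold (101 to 147) higher in PyMT-N. F11r was at 0.378 and 32.5 CPM, 85.8-fold (64.5 to 117) higher, Jup at 7.61 and 210.0 CPM, 27.6-fold (25.9 to 29.5) higher, and Jam2 at 0.229 and 5.57 CPM, 24.4-fold (16.7 to 36.8) higher in PyMT-N. These 4 genes were at least 10-fold lower in PyMT-M tumor cells, where 9.69% of 15155 genes were, and none of the 10 was at least 10-fold higher, where 5.98% were. At 1.5-fold, 6 of the 10 were lower in PyMT-M, where 35.1% of all genes were, 1 (Cdh5) was higher, where 29.4% were, and 3 lay between.

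The tumor-cell difference was broad across cells for some of these genes. At least 2 UMIs of Jup were in 87.0% of PyMT-N and 2.52% of PyMT-M tumor cells, at least 2 UMIs of Cgnl1 in 56.4% and 0.0976%, and at least 2 UMIs of F11r in 19.1% and 0.0585%. A UMI of F11r, Jup and Cgnl1 together was found in 1117 of 3380 PyMT-N tumor cells (33.0%) and in 0 of 5125 PyMT-M tumor cells. The latter allows a share of up to 0.0585% by a limit of 3 counts. Alone, F11r, Jup and Cgnl1 were in 42.6%, 95.8% and 78.0% of PyMT-N tumor cells. In PyMT-M tumor cells they were in 0.839%, 15.7% and 2.07%. The joint shares follow largely from these single shares and are no separate result. A link among the genes within cells was not tested. Jam2 was sparse, with at least 2 UMIs in 1.89% of PyMT-N tumor cells. Tumor cells had a median of 23778 UMIs (PyMT-M) or 20821 UMIs (PyMT-N).

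Tjp1 was the gene that tumor cells of both models shared, at 80.3 CPM in PyMT-M and 138 CPM in PyMT-N, with at least 2 UMIs in 49.8% and 64.1% of cells. Pecam1 (2.29 and 2.57 CPM), Esam (1.01 and 1.16 CPM) and Jam3 (0.173 and 0.129 CPM) had tumor levels that did not differ between the libraries beyond counting error. Pdgfra, which no class rule used, was at 34.3 CPM in tumor and 0.644 CPM in blood endothelial cells of PyMT-M, and at 59.9 and 0.700 CPM in PyMT-N. Pdgfrb was at 36.4 and 9.02 CPM in PyMT-M, and at 244 and 2.74 CPM in PyMT-N. Pdgfrb is not particular to tumor cells, being at 203 CPM in PyMT-M and 417 CPM in PyMT-N fibroblasts. These values concern genes that were higher in tumor than in blood endothelial cells, and give no scale for endothelial RNA in tumor cells. The part of free endothelial RNA in the low tumor levels was not tested.

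Cdh5 differed the other way, 1.54-fold higher in PyMT-M than in PyMT-N tumor cells, at a log2 ratio of 0.63 (0.38 to 0.88). It had 1 UMI in 221 and 2 or more in 100 of the 5125 PyMT-M tumor cells, and 1 UMI in 113 and 2 or more in 21 of the 3380 PyMT-N tumor cells. The 100 PyMT-M cells were chosen for their Cdh5 UMIs, so their Cdh5 level of 88.6 CPM follows from the choice. It is not a measured contrast with the other genes. Pecam1 was at 4.50, Esam at 2.08 and Cldn5 at 3.46 CPM in them. Il24, a cytokine gene, was at 24.2 CPM (18.9 to 30.6) against 3.11 CPM (2.80 to 3.45) in tumor cells with no Cdh5 UMI. Of these 100 cells 1 also met the lymphatic rule, and without it Pecam1 was at 2.79, Cldn5 at 1.39 and Il24 at 24.4 CPM.

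In the 21 PyMT-N cells Pecam1 was at 47.2, Cldn5 at 189 and the endothelial receptor gene Kdr at 39.1 CPM, but 7 of them also met the lymphatic rule and held 34 of the 35 UMIs of Pecam1, all 140 of Cldn5 and all 29 of Kdr. The other 14 cells had 40 UMIs of Cdh5 (72.6 CPM, again set by the choice of cells), 1 of Pecam1 and 0 of Cldn5 and Kdr. Over all tumor cells of a single class Cdh5 was 1.88-fold higher in PyMT-M (log2 ratio 0.91, 0.64 to 1.18), and Cldn5 4.35-fold (2.95 to 6.54) higher in PyMT-N, against 9.06-fold with the cells of several classes.

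Fibroblasts, selected by collagen, carried Tjp1 at 72.6 CPM (PyMT-M) or 73.8 CPM (PyMT-N) and Jam3 at 27.9 and 27.4 CPM, both within counting error. In fibroblasts of a single class Tjp1 was at 37.5 and 70.7 CPM, 1.88-fold (1.03 to 3.78) higher in PyMT-N, on 12 UMIs in PyMT-M. Jup and Cgnl1 were lower in the fibroblasts of PyMT-M (7.44 and 5.58 CPM, on 4 and 3 UMIs) than in those of PyMT-N (43.1 and 41.8 CPM), and 12 of the 58 and 11 of the 63 fibroblasts also met the tumor rule. Without those, Jup was 11.6-fold (1.97 to 466) and Cgnl1 2.85-fold (0.895 to 14.5) higher in PyMT-N, on 1 and 3 UMIs in PyMT-M, so the interval of Cgnl1 then held no difference. At least 10-fold over fibroblasts were 5 of the 10 genes (Cdh5, Pecam1, Esam, Cldn5 and F11r) in blood endothelial cells of each library, where 5.48% of genes were in PyMT-M and 6.75% in PyMT-N, with Cldn5 and F11r at 0 UMIs in PyMT-M fibroblasts. Leukocytes held Pecam1 at 211 CPM (PyMT-M) or 243 CPM (PyMT-N) and F11r at 30.0 and 31.3 CPM, both known on leukocytes, and each of the other 8 genes was at 7.07 CPM or less there.

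**Figure D5:**
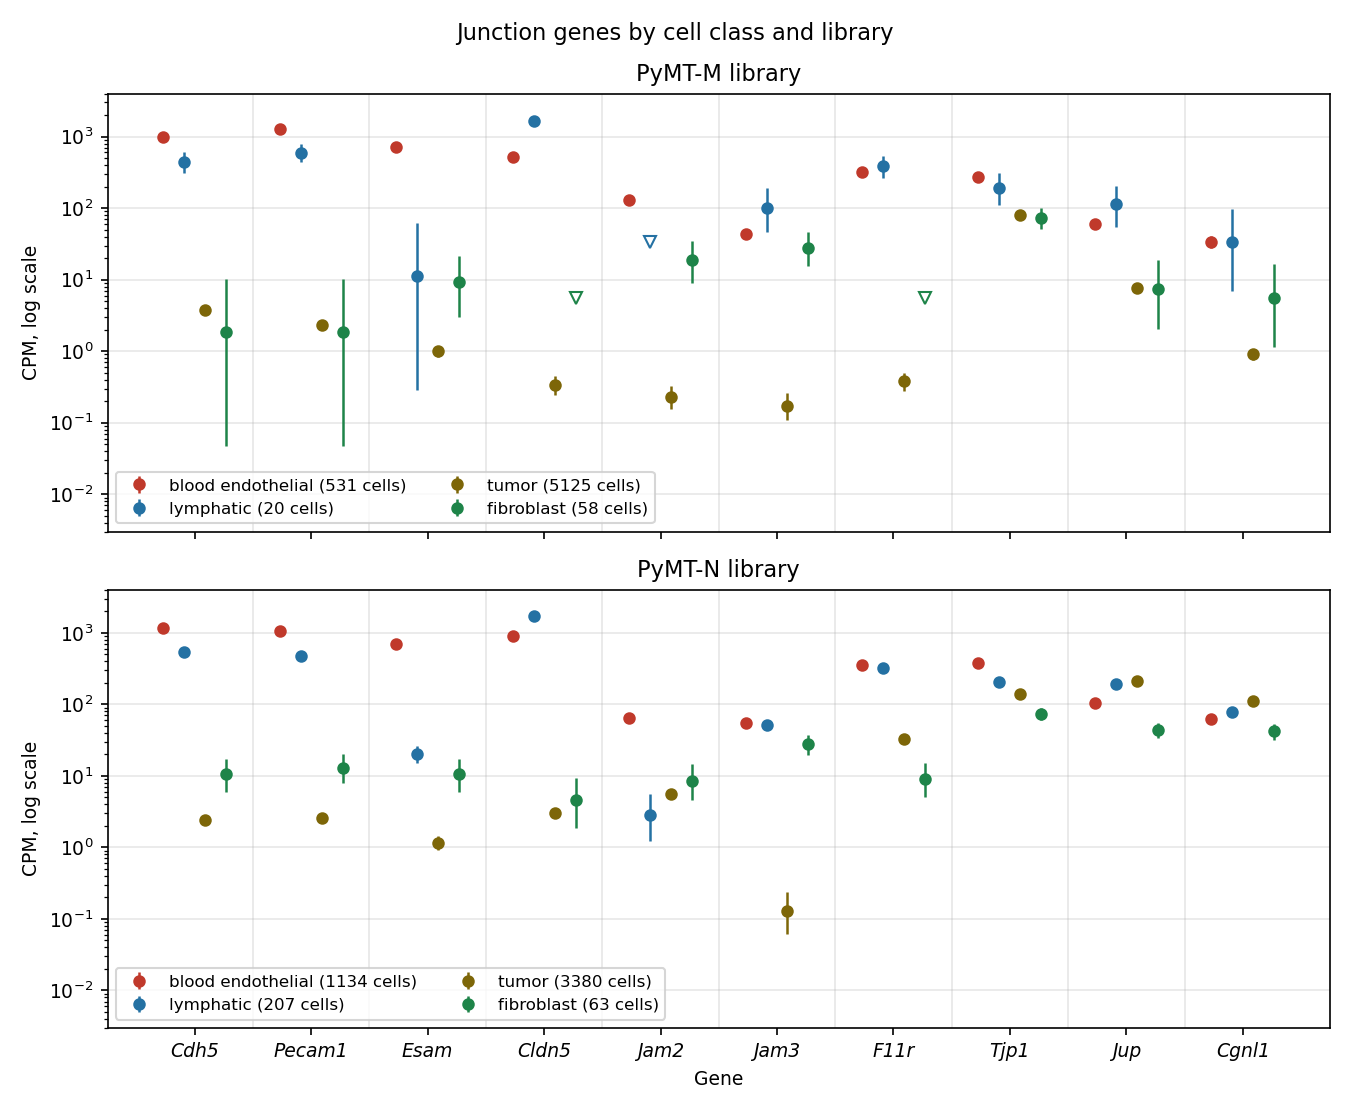
CPM of the 10 junction genes, on a log axis, in 4 cell classes of each library, with exact 95% Poisson intervals and open triangles where no UMI was counted (drawn at the level of 3 counts). Cdh5, Pecam1 and Esam are highest in blood endothelial cells and Cldn5 in lymphatic cells of both libraries. Cgnl1 (110.1 CPM) is highest in tumor cells in PyMT-N only. Jup in PyMT-N is at 210.0 CPM in tumor and 194 CPM in lymphatic cells, which are within counting error of each other.

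The genes whose levels followed a junction gene most closely were found by Pearson's r of log2(CPM + 5) over the 8 sums of 4 classes and 2 libraries, a description in which the points share libraries and cells. For Cdh5 they were led by Rasip1 (r = 0.998), Gimap1 (0.998) and Erg (0.997), and for Pecam1 by Gimap1 (0.999) and Fam110d (0.999). Lrg1 (0.999) and Tal1 (0.996) came first for Cldn5, Galnt12 (0.978) and Plscr2 (0.975) for Jam2, Arhgef3 (0.998) for F11r, Rnf34 (0.977) for Jup and Vav3 (0.985) for Cgnl1. Among the junction genes themselves Cdh5 and Pecam1 were closest (0.997), and Cldn5 and Jam2 were at 0.220.

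The wider junction machinery was described through 7 lists of 55 genes, of which 54 were in the matrices and 38 had at least 50 UMIs in blood endothelial cells. Of the 38, 9 were at least 1.5-fold lower in PyMT-M, 3 at least 1.5-fold higher and 26 between, where 12.7% and 10.9% of all genes were lower and higher. In cells of a single class 5 of 35 were lower and 3 higher, where 10.7% and 11.7% of all genes were. Each list holds 9 genes or fewer that were counted, so its counts are a description beside these same shares. The cadherin-catenin list, which carries the link from VE-cadherin to actin, had 0 lower and 1 higher of 7 (12.7% and 10.9% of all genes). Its phosphatase gene Ptprb, which dephosphorylates VE-cadherin, was at 639 and 421 CPM, a log2 ratio of 0.60 (0.53 to 0.68), or 0.53 and under 1.5-fold in cells of a single class, and vinculin (Vcl) at 0.49, whereas the catenin genes Ctnnb1 and Ctnna1 were at -0.48 and -0.42.

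The tight junction plaque list had 4 lower and 1 higher of 9 (12.7% and 10.9% of all genes), with Pard3, a polarity gene, at 6.12 and 27.5 CPM (-2.17, -2.91 to -1.51, on 19 UMIs in PyMT-M) and Amotl2, an angiomotin, at 35.7 and 18.6 CPM (0.94). In cells of a single class Pard3 turned its direction, at 5.17 and 2.57 CPM, a log2 ratio of 1.01 (0.06 to 1.89), and the list had 2 lower and 2 higher of 8 (10.7% and 11.7% of all genes). The 2 lower were Magi1 at -0.69 (-0.75 to -0.63) and Magi3 at -0.68 (-0.84 to -0.53), and the 2 higher were Pard3 and Amotl2 (0.88). Over all blood endothelial cells Magi1 was at -0.79 and Magi3 at -0.68. Marveld2 (-1.04, -2.72 to 0.28) and Ybx3 (0.47) over all those cells were the other named genes of that list. In the nectin list 2 of 4 were lower (12.7% of all genes), Nectin1 (-1.88, on 3 UMIs in PyMT-M) and Nectin3 (-0.96), with Nectin2 at -0.17 and Afdn at -0.10. In cells of a single class Nectin1 turned its direction, at 0.970 and 0.857 CPM on 3 and 12 UMIs, too few to be counted, which left 1 of 3 lower.

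Of the claudins other than Cldn5, Cldn15 was at 19.3 and 5.47 CPM, a log2 ratio of 1.82 (1.32 to 2.31), Cldn12 was at 0.45 (-0.55 to 1.36), and the others had fewer than 50 UMIs. Among desmosome genes Pkp3 (-1.01) and Pkp4 (0.23) were measured. In the list of other contact molecules Mcam was lower (-0.60) and Plvap, the diaphragm protein gene of fenestrated vessels, was at 1194 and 809 CPM (0.56), with Cd99l2 at -0.18 and Icam2 at 0.13. The Rap1 and CCM signaling list, had 1 lower and 0 higher of 9 (12.7% and 10.9% of all genes), with Radil (-0.66, -1.93 to 0.40, on 8 UMIs in PyMT-M) and Ccm2l (-0.41) lowest and Heg1 (0.56) and Rap1b (0.07) highest. In cells of a single class Radil turned its direction, at 2.59 and 1.64 CPM on 8 and 23 UMIs, and 0 of 8 were lower.

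In tumor cells 18 of 43 genes of these lists were at least 1.5-fold lower in PyMT-M, 10 higher and 15 between, where 35.1% of all genes were lower and 29.4% higher. Of the cadherins, Cdh13 (T-cadherin) was at 1114 CPM in PyMT-M and 1.02 CPM in PyMT-N tumor cells, and Cdh2 (N-cadherin) at 0.0473 CPM, on 6 UMIs, and 41.8 CPM. The tight junction gene Ocln was at 7.46 CPM in PyMT-M and 0.0387 CPM, on 3 UMIs, in PyMT-N, the opposite order from F11r, Jup and Cgnl1.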

How the data were processed

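Deposited values were whole-number UMI counts for each gene in each barcode, not normalized, which the authors made with Cell Ranger 8.0.0 on mm39 according to the submitters' processing notes. Counts on 3′ ends tally molecules, and levels were compared within a gene. The labels name collagenase I for the dissociation and the methods collagenase II with dispase II. Counts were summed per class and library and given as CPM with exact Poisson intervals, shares with exact Clopper-Pearson intervals and ratios with exact conditional binomial intervals, at 95%. No p-value was computed, since cells are not replicates. A gene with no UMI on the lower side counted as past the fold in the shares of all genes. The computation of the ratio intervals was checked on simulated sums drawn with Poisson counting error alone. That check cannot show how they hold under the spread between cells.

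The junction genes, classes and lists were chosen with earlier results of these data known. All 10 junction genes were named, and of each wider list the 2 highest and 2 lowest by log2 ratio in blood endothelial cells, and the genes most alike. Magi1 and Magi3 were named as the 2 lowest of their list in cells of a single class. The tumor genes Cdh13, Cdh2 and Ocln, and Il24, Kdr, Pdgfra and Pdgfrb, were chosen after their values were seen. Doublets were not removed. The software was scipy 1.17.1 with numpy 2.4.6 under Python 3.11.15, pandas 2.3.3 for tables and matplotlib 3.10.9 for plots. Settings varied were the cell filters, class thresholds, scaling, depth, cell cycle and the fold. Protein sequences, the paper's clusters and its human, proteomic and imaging data were not used here.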

Additional observations from a re-analysis of the deposited data

Results flagged for a closer look

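Jup was higher in blood endothelial than in tumor cells of PyMT-M, at a log2 ratio of 2.98, and lower in PyMT-N, at -1.00, and Cgnl1 was likewise at 5.23 in PyMT-M and -0.81 in PyMT-N. These stood out because the same contrast had opposite signs in the libraries.

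Cdh5 was lower in PyMT-M than in PyMT-N blood endothelial cells, at a log2 ratio of -0.26, and higher in tumor cells, at 0.63. Jam2 was at 1.00 in blood endothelial and -4.61 in tumor cells. Pecam1 was at 0.28 in blood endothelial cells and -2.81 in fibroblasts, the latter on 1 UMI against 20, and at -2.18 (-7.56 to 0.49) in fibroblasts of a single class. These stood out because the difference between the libraries had opposite signs in 2 cell classes. With 1 library per model the difference was not tested in any of the 5 cases.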

How the results depend on the processing

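The direction of each junction gene between the libraries held in all 15 alternatives, apart from Esam, whose log2 ratio ran from -0.13 to 0.06. The log2 ratio ran from -0.85 to -0.61 for Cldn5, 0.48 to 1.13 for Jam2, -0.88 to -0.58 for Jup, -1.16 to -0.73 for Cgnl1, -0.55 to -0.40 for Tjp1 and 0.12 to 0.34 for Pecam1. The number of genes at least 1.5-fold higher in PyMT-M fell from 1 to 0 in cells of 5000 to 15000 UMIs, where 11.9% of all genes were. At a fold of 2 it was 0 lower (5.97% of all genes) and 0 higher (4.34%). With a threshold of 10 endothelial UMIs it was 2 lower, Jup being at -0.58. Of the ratios between libraries 130 stayed within their counting interval and 20 did not, and of those to tumor cells 71 did and 9 did not. Of the shares of cells with a UMI, 59 left their interval and 1 did not when cells were thinned to other depths or not thinned. Chosen after seeing the data were the cells of 5000 to 15000 UMIs, those without mural or lymphatic UMIs, states and Cdh5+ tumor cells in cells of a single class, the E-box and the lists in tumor cells. No paired analysis was possible because each model has 1 library. The PyMT-M lymphatic (20) and fibroblast (58) cells limit what could be detected in them, and intervals leave out the spread between tumors, which these pools cannot give.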
